A study of Homo sapiens with 4 samples.

Results

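The cell cycle and replication genes described here are the autosomal protein-coding genes whose symbols belong to 8 families: the CDK kinases, the cyclins CCNA to CCNL, the CDC and CDCA genes, MCM, ORC, E2F and AURK. They were chosen by symbol pattern and not by their values, though with earlier results of these data known. To them belonged 84 of 19122 autosomal protein-coding genes of the RefSeq table. These were 18 CDK, 14 cyclin, 21 CDC, 6 CDCA, 9 MCM, 6 ORC, 8 E2F and 2 AURK genes. A symbol pattern also takes in genes that share a name and not a role, such as CDC40, which acts in splicing, and CDC73, a subunit of the PAF1 transcription complex.

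BAF45D, encoded by DPF2, belongs to the BAF complex, which remodels chromatin, and its position on DNA was mapped by CUT&Tag, in which an antibody brings a transposase to the DNA beside the target protein. There were 4 libraries, 2 per cell type, each from 100000 cells. ESC1 and ESC2 came from H9, an established human embryonic stem cell line, grown on Matrigel in mTeSR1. NSC1 and NSC2 came from neural stem cells that the same line gave after 10 days of induction in N2B27 medium with LDN-193189, SB431542, CHIR-99021, FGF2, FGF8 and DAPT, followed by a maintenance medium with SB-431542, CHIR-99021 and the hedgehog agonist Hh-Ag 1.5, and then a medium with FGF2 and EGF. All cells were of 1 line, and no label says that libraries of a cell type were separate cultures, so the spread between them may be technical. The files list peaks and hold no RNA, so the labelled cell types were not checked against marker expression.

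In dividing cells the origin recognition complex marks replication origins, CDC6 helps it load the MCM helicase, and CDC7 and CDC45 take part in turning that helicase on. Cyclin-dependent kinases, switched by their cyclins, drive the steps from G1 through S phase to mitosis, and E2F factors control the transcription of many genes of the set. BAF complexes remodel nucleosomes at promoters and enhancers, and their subunit makeup is known to change when stem cells become neural progenitors and neurons.

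A gene was called in a library when a peak of that library lay within 1 kb of either end of the gene, and such a peak is named a gene-end peak. Gene-end peaks were found at 13 and 35 of the 84 genes in ESC1 and ESC2 and at 61 and 57 in NSC1 and NSC2. These are 15.5%, 41.7%, 72.6% and 67.9% of the set, where 6.80%, 23.2%, 43.5% and 38.7% of all 19122 genes were called in the same libraries. Mean numbers of genes called were 59.0 ± 2.83 for NSC and 24.0 ± 15.6 for ESC (SD over 2 libraries), a ratio of 2.46, and the lower NSC library stood above the higher ESC library. An exact permutation test, two-sided, gave p = 0.33, the smallest value that 2 libraries against 2 allow. The share of the set divided by the share of all genes was 2.28 and 1.80 in the ESC libraries and 1.67 and 1.76 in the NSC libraries. With whole lists the set thus stood above the background in each library. When peaks had to reach a −log10 q of 5, the ESC1 count fell to 3 of the 84 genes. That is near the 3.36% of all genes called there.

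The lists themselves differed in length and depth. They held 4054, 12159, 28887 and 23942 autosomal peaks in ESC1, ESC2, NSC1 and NSC2, from 20734829, 18953543, 5566407 and 5377831 tags. The lowest pileup among listed peaks was 8, 7, 4 and 4 in the same order, and the part of depth and thresholds in the counts was not tested. When each list was reduced to its 4054 strongest peaks by −log10 q, the genes called numbered 13, 26, 20 and 18 in the same order, where 6.80%, 13.2%, 11.4% and 10.9% of all genes were called. The difference of the means, 35.0 genes higher in NSC with whole lists, was then −0.5. Among equal numbers of the strongest peaks, then, both NSC libraries held more genes of the set than ESC1 and fewer than ESC2.

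Across the 4 libraries, 13 genes had a gene-end peak in all of them (15.5% of the set, against 6.01% of all genes) and 18 had one in NSC1, NSC2 and ESC2 (21.4%, against 12.7%). Another 21 genes were called in both NSC libraries and in neither ESC library, named NSC-only here (25.0%, against 16.4%). No gene was called in both ESC libraries and in neither NSC library (ESC-only), a class that held 0.251% of all genes. No gene-end peak was found in any library at 15 genes (17.9%, against 50.5%). The remaining genes were called in NSC1 alone (8 genes), NSC2 alone (5), ESC2 alone (3) or ESC2 and NSC1 (1), classes that were not counted over all genes. Both NSC libraries called 52 genes (61.9%, against 35.2%), and 31 of these 52 also had an ESC peak (59.6%, against 53.4% of all genes called in both NSC libraries), which is close to the background. Each of the 13 genes called in ESC1 was called in the other 3 libraries (88.5% for all genes called in ESC1). Of the 35 genes called in ESC2, 31 were called in both NSC libraries, where the background was 80.7%.

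**Figure D1:**
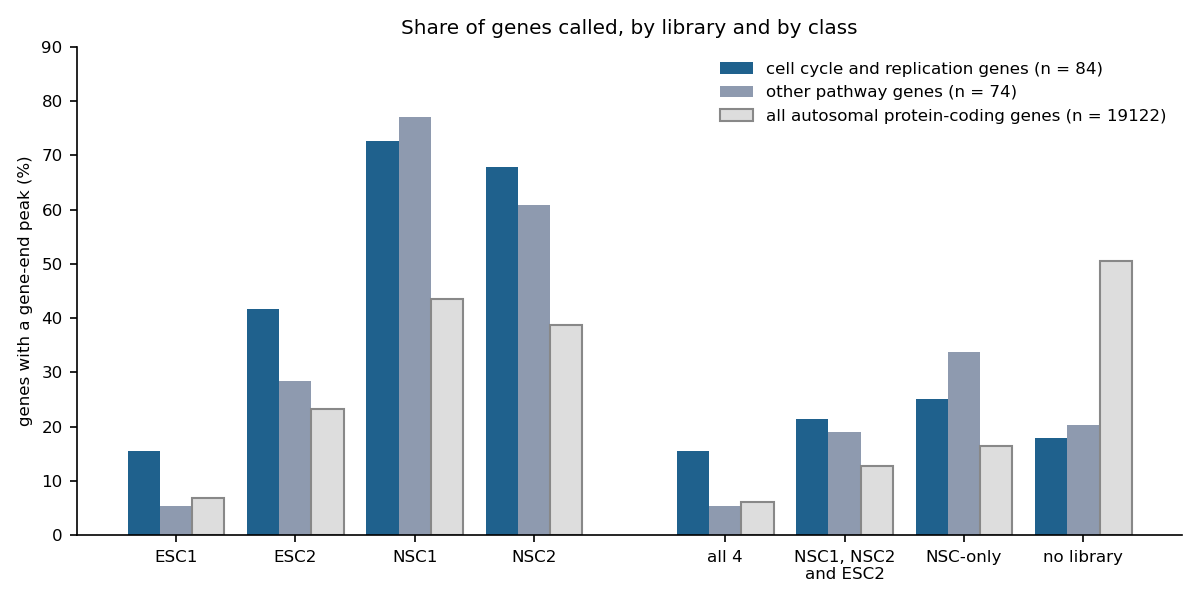
Percent of genes with a gene-end peak (vertical axis) in each library and in 4 classes of libraries, for the 84 cell cycle and replication genes, 74 other genes of the same pathways, and all 19122 autosomal protein-coding genes. Bars are single percents with no error bar, and the dark bars reach 72.6% in NSC1 and 67.9% in NSC2, above the grey bars at 43.5% and 38.7%.

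The counts were also taken by family. All 9 MCM genes were called in NSC2 and 8 in NSC1, with 1 in ESC1 and 4 in ESC2. The E2F family had 1 of 8 genes called in each ESC library and 5 in each NSC library, and the ORC family had 2, 4, 4 and 4 of 6 genes called in ESC1, ESC2, NSC1 and NSC2, with no NSC-only gene. The CDC family had the most genes by number in ESC2, with 12 of 21 called there and 13 in each NSC library. Of the 18 CDK genes 4, 6, 12 and 12 were called, and of the 14 cyclins 1, 5, 11 and 9. With 6.80% and 23.2% of all genes called in ESC1 and ESC2, a count of 0 there in a small group is near the background. The NSC-only class held 16.4% of all genes, so its absence among 6 ORC genes is near the background as well. These are counts in small families and no test of a difference between families was made.

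**Figure D2:**
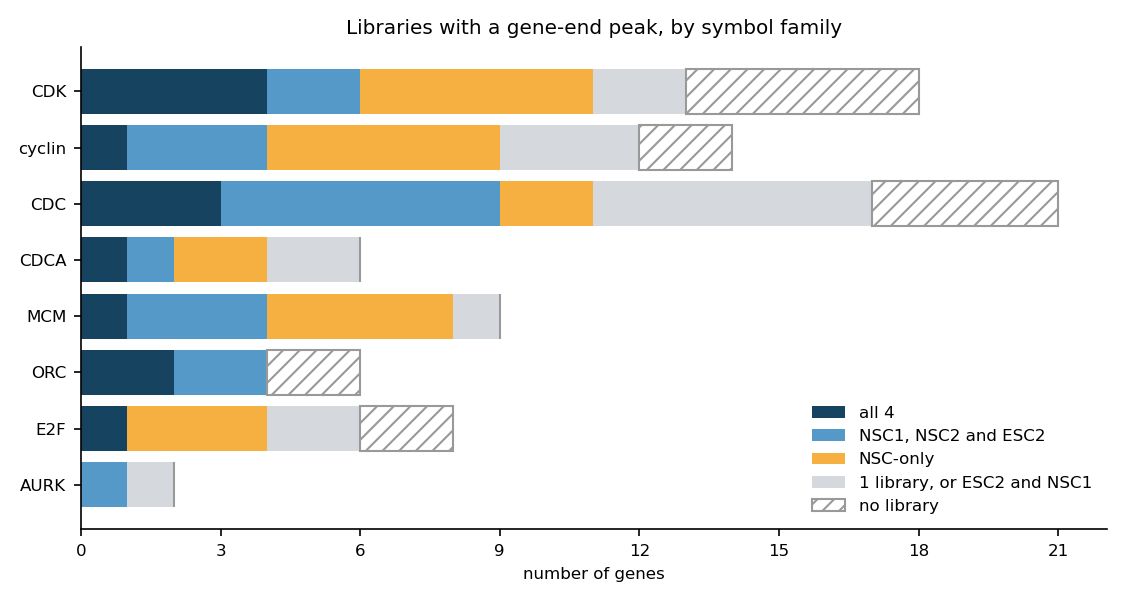
Number of genes in each symbol family (horizontal axis) by the libraries in which a gene-end peak was called. NSC-only genes make up 4 of 9 MCM and 3 of 8 E2F genes and none of the 6 ORC genes, where the class held 25.0% of the set and 16.4% of all genes.

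Strength is given below as −log10 q of the strongest gene-end peak, the authors' own value for a peak against the local background of its library. Lists of separate libraries share no scale, so these values rank peaks within 1 library and do not compare libraries. Among the kinases that drive the cycle, CDK2, the partner of cyclins E and A at the start of S phase, had the highest mean percentile of the family (97.3), with −log10 q of 19.8 and 38.6 in ESC1 and ESC2 and 37.8 and 39.7 in NSC1 and NSC2. These peaks lay beyond the higher-coordinate end of CDK2, at chr12:55973525-55974090 in ESC1, with summits 951 to 1059 bp from that end and 101 to 209 bp from the nearest end of RAB5B, the gene of an endosomal GTPase. At the lower-coordinate end of CDK2 the ESC libraries had no peak, and the NSC libraries had weaker ones, with −log10 q of 3.07 in NSC1 and 5.98 in NSC2. With a window of 500 bp CDK2 was therefore NSC-only. CDK4, which with D cyclins phosphorylates the retinoblastoma protein, was not called in ESC1 and had −log10 q of 17.2, 16.0 and 21.9 in ESC2, NSC1 and NSC2. It ranked at the 92.2, 89.6 and 95.4 percentile of those lists. CDK1, the kinase of mitotic entry, was called in the same 3 libraries, with 13.3, 7.85 and 6.84. CDK6, the close relative of CDK4, had no gene-end peak in any library, while with a window of 2.5 kb it was NSC-only.

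The kinases that act on transcription included 3 of the 13 genes called in all 4 libraries. CDK12 and CDK13, which with cyclin K phosphorylate RNA polymerase II, were called in all 4 libraries. CDK12 had −log10 q of 3.64, 13.9, 45.3 and 23.6 in ESC1, ESC2, NSC1 and NSC2, and CDK13 had 4.08, 13.9, 33.2 and 27.5. CDK19, a kinase of the Mediator complex, was also called in all 4, with 3.22, 11.8, 30.6 and 15.3. In both NSC lists these peaks ranked high, as they did in ESC2, while in ESC1 they lay near the middle of the list. Its paralogue CDK8 was NSC-only with 10.5 in NSC1 and 3.35 in NSC2, as was CDK9, the kinase of P-TEFb, with 5.94 and 3.04. CDK7, the CDK-activating kinase, was called in NSC1 alone at 3.65. Together the 6 kinases of this role were called 3, 3, 6 and 5 times in ESC1, ESC2, NSC1 and NSC2. Of all genes 6.80%, 23.2%, 43.5% and 38.7% were called there. Of 8 other kinases of the family none was called in an ESC library, and with those shares 0 of 8 is near the background. CDK5, known for its activity in neurons, was NSC-only with 10.4 and 9.75, CDK10 and CDK17 were NSC-only with −log10 q between 3.30 and 4.08, CDK20 was called in NSC2 alone, and CDK3, CDK14, CDK15 and CDK18 were called nowhere.

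Among the G1 cyclins no gene had a peak in ESC1, where 6.80% of all genes were called. CCNE1 and CCNE2, the E cyclins that activate CDK2, were both NSC-only, with −log10 q of 7.09 and 4.84 at CCNE1 and 8.71 and 8.47 at CCNE2 in NSC1 and NSC2. The CCNE2 summits were 910 and 979 bp from its nearest end and 16 and 85 bp from an end of NDUFAF6. With a window of 500 bp CCNE2 was called in no library. The D cyclins were each called in 1 library: CCND1 in NSC1 at 3.45, CCND3 in NSC1 at 2.27, and CCND2 in ESC2 at 4.79. Within 2.5 kb CCND2 was called in 3 libraries and CCND1 in 2. Within 10 kb CCND2 was called in all 4, CCND3 in 3 and CCND1 in 2. These single calls thus rested on the width of the window. Of the S and M phase cyclins, CCNA2 was NSC-only with 7.49 and 4.14 and CCNB2 with 6.64 and 3.65. CCNB1, the mitotic partner of CDK1, was called in ESC2, NSC1 and NSC2 with 13.1, 9.48 and 4.11. CCNA1, mainly known from the germ line, had no peak in any library. CCNG2, a cyclin associated with cell cycle arrest, had the strongest cyclin peak in each library and was called in all 4 with 3.22, 19.4, 21.7 and 24.9. CCNG1, a p53 target, was called in ESC2, NSC1 and NSC2 with 12.5, 11.7 and 19.7, with overlapping peaks over its start (chr5:163437220-163437757 in ESC2). The cyclin L genes, which act in splicing, split between classes: CCNL1 was called in ESC2, NSC1 and NSC2 and CCNL2 was NSC-only. CCNI2 was called nowhere.

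**Figure D3:**
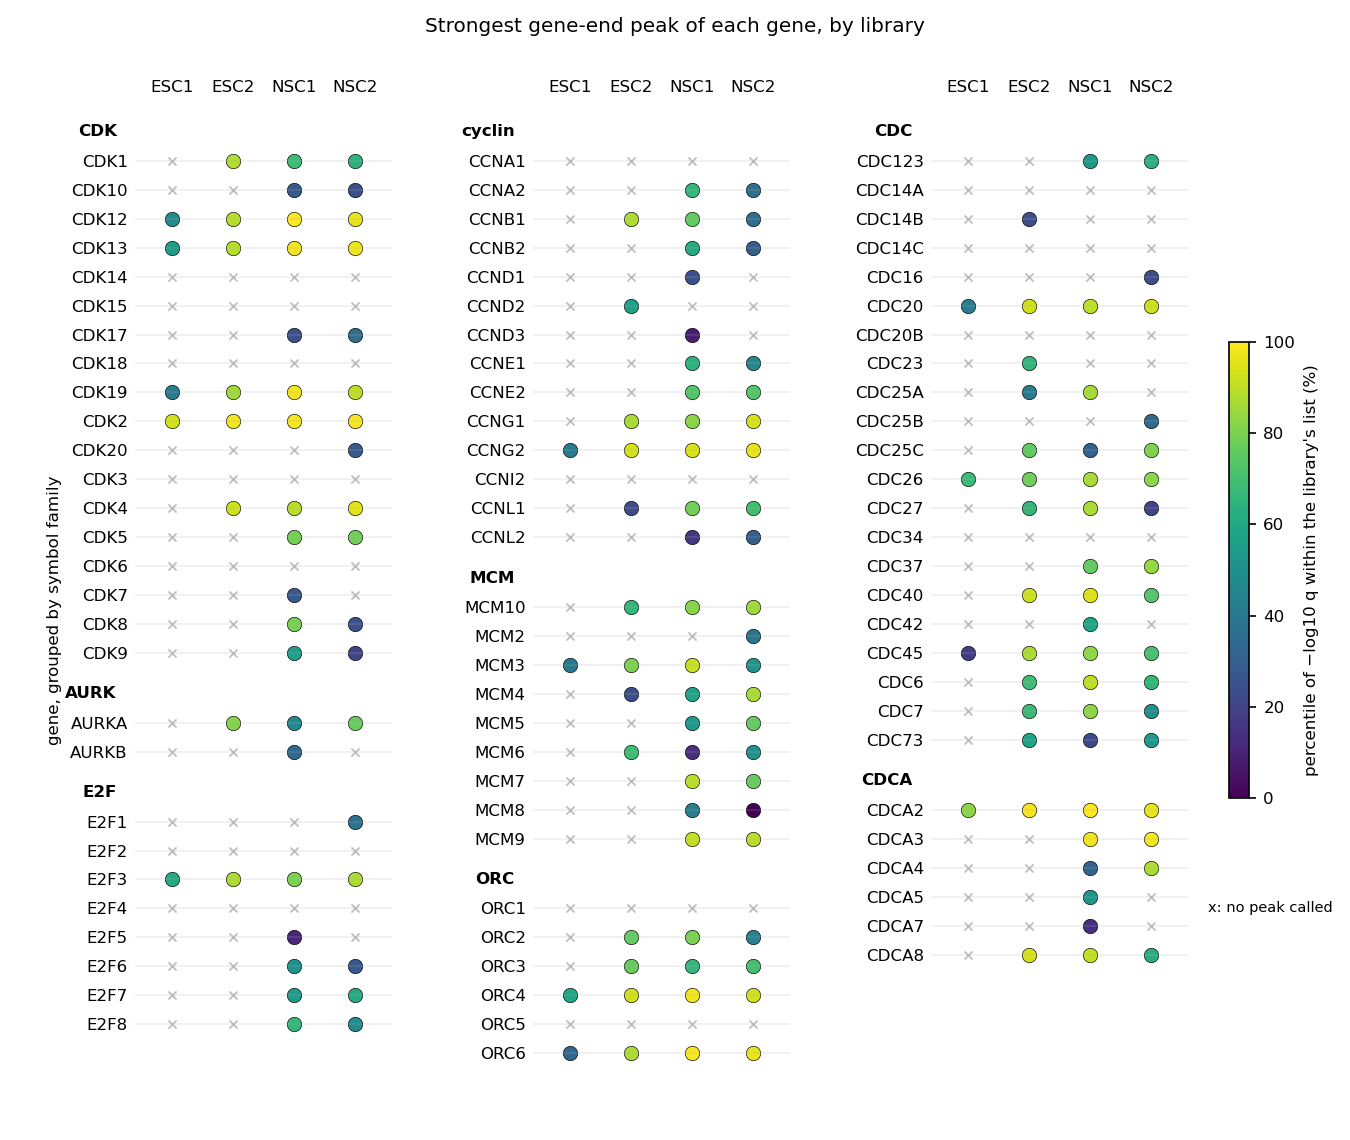
Strongest gene-end peak of each of the 84 genes in each library, as the percentile of its −log10 q within that library's list (colour), with a cross where no peak was called. The 13 genes with 4 filled points include CDK12, CDC20 and ORC4, and the ESC1 column has filled points at those 13 genes alone.

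For origin recognition and licensing, ORC4 and ORC6 were called in all 4 libraries, ORC2 and ORC3 in ESC2 and both NSC libraries, and ORC1 and ORC5 in none. ORC4 had −log10 q of 4.54, 18.2, 32.5 and 17.8 in ESC1, ESC2, NSC1 and NSC2. ORC6 had 2.86, 12.8, 41.4 and 24.8, at the 99.1 percentile of the NSC1 list. Both lie next to another gene: the summits of the strongest peaks at ORC4 were 47 to 456 bp from an end of MBD5 and 671 to 1080 bp from the 5′ end of ORC4, and those at ORC6 were 120 to 157 bp from an end of VPS35 and 324 to 361 bp from the 5′ end of ORC6. ORC4 also had weaker peaks with summits 143 bp from its 5′ end in ESC2 and 182 bp in NSC2, with −log10 q of 5.12 and 4.27. ORC2 had 7.99, 10.7 and 4.75 and ORC3 had 8.23, 7.47 and 7.83 in ESC2, NSC1 and NSC2. CDC6, which loads the MCM helicase at the complex, was called in the same 3 libraries with 6.57, 16.6 and 7.18. ORC1, the subunit whose level varies with the cycle, had no gene-end peak. Its RefSeq promoter window, chr1:52404374-52404673, lies inside the gene and farther than 1 kb from the gene end, and peaks of ESC2, NSC1 and NSC2 overlapped it.

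Of the subunits of the replicative helicase, MCM3 was called in all 4 libraries and MCM2 in NSC2 alone, so even subunits of 1 complex fell in different classes. MCM3 had −log10 q of 3.12, 9.23, 17.8 and 5.40 in ESC1, ESC2, NSC1 and NSC2. MCM4 had 2.64, 6.20 and 13.3 and MCM6 had 6.43, 2.66 and 5.31 in ESC2, NSC1 and NSC2. MCM5 and MCM7 were NSC-only, with 5.73 and 9.04 at MCM5 and 16.3 and 9.33 at MCM7 in NSC1 and NSC2. MCM2 stood at 4.29 in NSC2. The 2 paralogues that act in recombination repair, MCM8 and MCM9, were NSC-only as well. MCM9 had the highest mean percentile of the family over the libraries that called it, with 17.1 in NSC1 and 15.1 in NSC2, with summits 71 and 59 bp upstream of its 5′ end, while MCM8 had 4.71 and 1.38. Each of the 3 factors that activate the helicase was called in ESC2 and both NSC libraries: CDC45 in all 4 with 2.22, 13.0, 12.2 and 7.90, and CDC7 and MCM10 in those 3. CDC7, the kinase that phosphorylates the loaded helicase, had 6.31, 12.0 and 5.10, and MCM10 had 5.94, 11.6 and 12.6.

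Genes of mitotic exit were among those called in both cell types. CDC20, the activator of the anaphase-promoting complex, had a peak in all 4 libraries, with −log10 q of 3.25, 17.9, 16.5 and 17.6 in ESC1, ESC2, NSC1 and NSC2 and summits 145 to 156 bp upstream of its 5′ end. CDC26, a subunit of that complex, was also called in all 4 with 5.44, 8.69, 14.0 and 11.2. Its other subunits were called less evenly: CDC27 in ESC2, NSC1 and NSC2 with 6.00, 14.3 and 3.04, CDC23 in ESC2 alone at 5.89, and CDC16 in NSC2 alone at 3.30. The CDC25 phosphatases, which remove inhibitory phosphates from CDKs, had no peak in ESC1, where 6.80% of all genes were called. CDC25C was called in the other 3 libraries with 7.89, 3.87 and 10.5, CDC25A in ESC2 at 3.66 and NSC1 at 13.9, and CDC25B in NSC2 alone at 3.94. CDC25A was the single gene called in 1 library of each cell type. CDC14B was called in ESC2 alone at 2.64 and CDC14A nowhere.

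CDCA2, which recruits protein phosphatase 1 to chromosomes at mitotic exit, had −log10 q of 9.07, 46.1, 48.5 and 25.1 in ESC1, ESC2, NSC1 and NSC2, the highest values of the set in ESC2 and NSC1. CDCA3, a factor of mitotic entry, was the NSC-only gene with the highest mean percentile (98.2), with 31.8 in NSC1 and 33.0 in NSC2. Those summits were 775 and 789 bp upstream of CDCA3 and 89 and 75 bp from an end of USP5, the gene of a deubiquitinase. CDCA3 also had a second, weaker peak at its own start, chr12:6851312-6851512 in NSC1 and chr12:6851313-6851539 in NSC2, with −log10 q of 8.43 and 7.40 and summits 120 and 145 bp upstream of its 5′ end. CDCA3 also had peaks of ESC1 and ESC2 within 2.5 kb, so its class held for the 1 kb window and not for the wider one. CDCA8, the borealin subunit of the chromosomal passenger complex, was called in ESC2, NSC1 and NSC2 with 19.2, 16.7 and 6.59. CDCA4 was NSC-only with 3.87 and 13.7, and CDCA5, the cohesion factor sororin, and CDCA7 were called in NSC1 alone. Of the aurora kinases, AURKA, which acts at spindle poles, was called in ESC2, NSC1 and NSC2 with 9.74, 5.07 and 9.35, and AURKB, the kinase of the passenger complex, in NSC1 alone at 4.04.

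Among the E2F factors, E2F3 had a peak in all 4 libraries, with −log10 q of 4.69, 13.2, 10.8 and 13.5 in ESC1, ESC2, NSC1 and NSC2 and summits 163 to 338 bp upstream of its 5′ end. The other activators of the family were called in 1 library or none, E2F1 in NSC2 at 4.19 and E2F2 nowhere. Of the 5 remaining E2Fs, 3 were NSC-only: E2F6 with 5.51 and 3.56, E2F7 with 5.87 and 6.46, and E2F8 with 7.42 and 5.02. E2F5 was called in NSC1 alone at 2.48 and E2F4 nowhere, while both had peaks of all 4 libraries within 10 kb. None of these 5 E2F genes had a gene-end peak in an ESC library, where 6.80% and 23.2% of all genes were called, so that 0 of 5 is near the background.

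Members of the set that share a name and act elsewhere were called as well. CDC40, a splicing factor, had −log10 q of 17.4, 23.3 and 8.45 in ESC2, NSC1 and NSC2. CDC73 was called in the same 3 libraries with 4.97, 3.24 and 5.47. CDC37, a co-chaperone of HSP90 that serves kinases, was NSC-only with 9.51 and 11.9, as was CDC123, an assembly factor of translation initiation factor 2, with 5.70 and 6.79. CDC42 was called in NSC1 alone at 6.38, and CDC34, CDC14C and CDC20B in no library. Over the called genes of the set the median −log10 q was 3.64 in ESC1, where it was 4.93 over all called genes. In ESC2 it was 9.74 against 6.90, in NSC1 9.48 against 7.86 and in NSC2 7.74 against 7.17.

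Several of these peaks lie between close gene pairs. A gene-end peak of 26 of the 69 genes called in any library also lay within 1 kb of another coding gene. This share, 37.7%, is near the 33.2% for all called genes. The summit of the strongest peak was nearer to another coding gene in every library where it was called for 12 of the 69: AURKA, CCND3, CCNE2, CDC123, CDC27, CDCA3, CDCA5, CDCA8, CDK2, MCM2, ORC4 and ORC6. It was nearer in some libraries for 6 more, CDC25C, CDC26, CDC40, CDCA2, CDK5 and MCM8, and nearest to the gene's own end in every library for 51. These 3 counts were not made over all called genes. When a gene was called from peaks whose summit was nearest to its own end, a setting chosen after the data were seen, 10, 29, 51 and 46 genes were called in ESC1, ESC2, NSC1 and NSC2, where 5.48%, 19.4%, 37.4% and 32.9% of all genes were. The NSC-only class then held 17 genes (against 14.3% of all genes). In all 4 libraries 8 genes remained called (against 4.35%): CCNG2, CDC20, CDC45, CDK12, CDK13, CDK19, E2F3 and MCM3. ORC6 was called in no library in that setting, and CDC26 was called in both ESC libraries and in neither NSC library.

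Among genes of the set with a known strand, peaks sat at the start of the gene. The RefSeq promoter table gave a strand for 73 of the 84 genes, all but AURKA, CCND1, CCND2, CCNE2, CDC73, CDCA2, CDK2, E2F5, E2F8, MCM4 and MCM5. Each of the 73 that was called had its peak at the 5′ end: 11 of 11, 29 of 29, 51 of 51 and 49 of 49 in ESC1, ESC2, NSC1 and NSC2. Over all called genes with a strand the shares were 94.3%, 94.2%, 96.2% and 96.1%, so this is near the background. The median summit lay upstream of the 5′ end, at −145 and −155 bp in ESC1 and ESC2 and −62.0 and −85.5 bp in NSC1 and NSC2, over 11, 30, 61 and 60 peaks. Where a gene was called in a pair of libraries, its peaks overlapped by at least 1 bp in every such case, 52 of 52 genes for the NSC pair, 13 of 13 for the ESC pair, and 32 of 32 for ESC2 and NSC1. The median gap between the summits was 52.0, 51.0 and 31.5 bp in these pairs. All peaks compared lay within 1 kb of the ends of the same gene. Overlap was not counted over all genes, so it is not shown to be particular to the set.

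**Figure D4:**
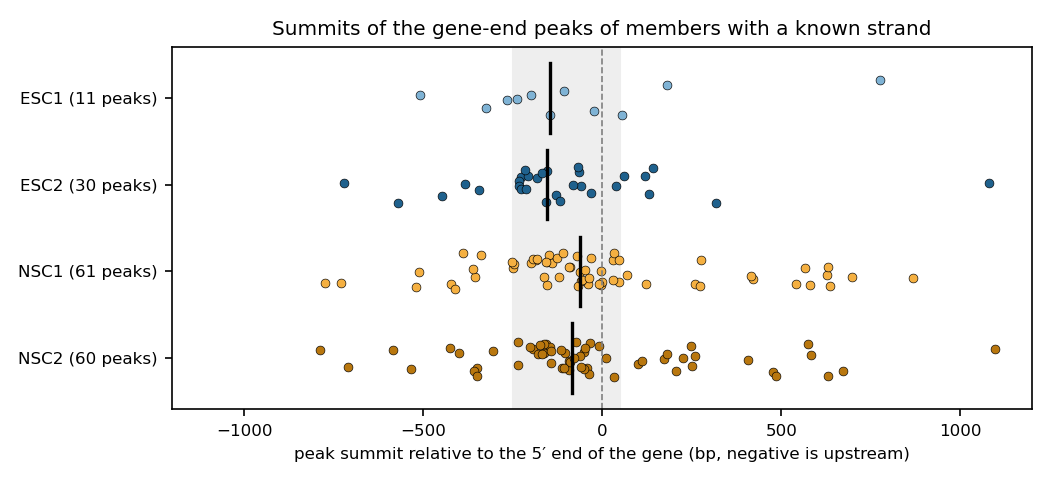
Distance of each gene-end peak's summit from the 5′ end of its gene in bp (horizontal axis, negative upstream) for the genes with a known strand, 1 row of points per library, with the median as a black bar and the promoter window of the sequence table in grey. Points are spread vertically for legibility, and the medians fall between −155 and −62.0 bp.

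Promoters that carry such peaks are shown for 6 genes, to let the sequence under the peaks be read beside the calls. ORC4 stands for the genes called in all 4 libraries, CDK4 for those called in ESC2 and both NSC libraries, and CDCA3 and MCM9 for the NSC-only genes, chosen as those with the highest mean percentile among genes whose promoter window was in the table and overlapped a peak. CDK1 and MCM3 were added after their motif matches were seen. Each sequence runs from 250 bases before to 50 bases after the start of the gene in RefSeq, GRCh38.p14, 5′ to 3′ on the strand of the gene. Capitals mark matches, on either strand, to CCAAT (the NF-Y box), TTTGAA or TTCGAA (cell cycle homology region type), TTTGGCGC, TTTCCCGC or TTTCGCGC (E2F type), GGGCGG (Sp1 type) or TGACGTCA (CRE type), so that CCGCCC and ATTGG are matches read on the opposite strand. The windows are ORC4 at chr2:148021502-148021801 (minus strand), CDK4 at chr12:57752261-57752560 (minus), CDCA3 at chr12:6851237-6851536 (minus), MCM9 at chr6:118935110-118935409 (minus), CDK1 at chr10:60778081-60778380 (plus) and MCM3 at chr6:52284693-52284992 (minus).
ORC4: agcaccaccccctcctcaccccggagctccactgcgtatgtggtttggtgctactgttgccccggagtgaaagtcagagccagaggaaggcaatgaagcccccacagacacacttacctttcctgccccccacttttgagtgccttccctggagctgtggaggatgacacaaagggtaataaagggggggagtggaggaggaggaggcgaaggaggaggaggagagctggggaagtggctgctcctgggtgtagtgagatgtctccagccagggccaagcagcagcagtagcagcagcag
CDK4: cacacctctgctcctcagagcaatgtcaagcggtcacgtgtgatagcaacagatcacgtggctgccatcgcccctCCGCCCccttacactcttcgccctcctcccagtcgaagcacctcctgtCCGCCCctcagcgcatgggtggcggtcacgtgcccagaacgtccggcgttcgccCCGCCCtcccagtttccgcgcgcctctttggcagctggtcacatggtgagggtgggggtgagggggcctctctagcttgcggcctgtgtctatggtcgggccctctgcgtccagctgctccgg
CDCA3: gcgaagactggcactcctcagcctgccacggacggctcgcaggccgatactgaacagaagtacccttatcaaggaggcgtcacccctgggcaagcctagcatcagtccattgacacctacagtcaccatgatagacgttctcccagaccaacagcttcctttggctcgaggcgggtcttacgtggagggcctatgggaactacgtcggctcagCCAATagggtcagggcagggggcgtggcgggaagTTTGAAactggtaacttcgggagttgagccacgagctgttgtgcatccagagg
MCM9: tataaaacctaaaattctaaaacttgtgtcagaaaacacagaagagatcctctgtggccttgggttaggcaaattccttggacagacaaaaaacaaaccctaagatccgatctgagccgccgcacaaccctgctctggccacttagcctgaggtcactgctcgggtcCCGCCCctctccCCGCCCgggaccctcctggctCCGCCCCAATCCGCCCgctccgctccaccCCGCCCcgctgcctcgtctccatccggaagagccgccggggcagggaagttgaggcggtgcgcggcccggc
CDK1: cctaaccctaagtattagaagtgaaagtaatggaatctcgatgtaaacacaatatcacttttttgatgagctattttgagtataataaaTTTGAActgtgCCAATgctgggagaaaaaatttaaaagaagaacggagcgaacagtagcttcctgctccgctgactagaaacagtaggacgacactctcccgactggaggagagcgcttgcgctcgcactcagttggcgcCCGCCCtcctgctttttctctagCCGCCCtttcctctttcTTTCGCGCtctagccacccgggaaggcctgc
MCM3: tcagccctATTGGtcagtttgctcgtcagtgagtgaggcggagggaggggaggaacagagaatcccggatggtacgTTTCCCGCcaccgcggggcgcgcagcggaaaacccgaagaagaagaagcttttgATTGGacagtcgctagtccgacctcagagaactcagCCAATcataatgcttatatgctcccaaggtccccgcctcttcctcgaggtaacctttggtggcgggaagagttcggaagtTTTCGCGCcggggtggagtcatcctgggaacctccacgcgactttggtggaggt

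The ORC4 window, overlapped by peaks of ESC2 and NSC1, held none of these motifs, and its strongest peaks lay downstream of the start, toward MBD5. The CDK4 window held 3 GGGCGG matches under peaks of ESC2, NSC1 and NSC2. In CDCA3 a CCAAT match stands upstream of the start, under the weaker NSC peaks at its own end, and a TTTGAA match stands at the start. MCM9 held 5 GGGCGG matches and a CCAAT that overlaps one of them. CDK1 held a TTTGAA and a CCAAT match close together, GGGCGG at 2 places on the opposite strand, and TTTCGCGC after the start. MCM3 held 3 CCAAT matches and the E2F-type motifs TTTCCCGC and TTTCGCGC, in a window that peaks of all 4 libraries overlapped in part or whole.

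Over the 73 windows, a peak of ESC1, ESC2, NSC1 and NSC2 overlapped 7, 27, 48 and 45 of them (9.59%, 37.0%, 65.8% and 61.6%), against 5.48%, 19.5%, 39.0% and 34.5% of all 15100 promoter windows in the table. Any of the 3 E2F-type motifs was in 19 of the 73 windows (26.0%) and in 3.80% of all windows. CCAAT was in 47.9% against 36.0%, GGGCGG in 78.1% against 58.9%, TGACGTCA in 8.22% against 2.65%, and TTTGAA or TTCGAA in 15.1% against 13.4%. Of the genes with an E2F-type motif in the window 11 of 19 were called in both NSC libraries (57.9%), and of those without it 33 of 54 (61.1%). With CCAAT the counts were 25 of 35 (71.4%) and without it 19 of 38 (50.0%). With GGGCGG they were 35 of 57 (61.4%) and without it 9 of 16 (56.2%). With TTTGAA or TTCGAA they were 10 of 11 (90.9%), all but CDCA5, and without either 34 of 62 (54.8%). The 10 genes were CCNB2, CDC20, CDC40, CDCA3, CDCA4, CDCA8, CDK1, CDK19, E2F3 and MCM6. Calls by motif were not counted over all promoter windows, so a pattern of the set cannot be told from one of all genes. These shares describe letters in a window, were compared for several motifs at once, and have no test.

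Farther from the gene ends, a peak inside the gene or within 10 kb of it was found for 23, 51, 74 and 73 of the 84 genes in ESC1, ESC2, NSC1 and NSC2. These are 27.4%, 60.7%, 88.1% and 86.9% of the set, against 15.5%, 44.1%, 64.9% and 60.0% of all genes. Long genes have more room for such peaks. Of the 21 NSC-only genes, 6 had an ESC peak in that wider region: CDCA3 in both ESC libraries, and CDK17, MCM7, MCM8, MCM9 and CCNL2 in ESC2. Of the 15 genes without a gene-end peak, ORC1 among them, 10 had a peak in the wider region in at least 1 library. The same shares were not counted over all genes of these 2 classes, so neither count is shown to be particular to the set. CDK6 had 0, 2, 5 and 3 such peaks in ESC1, ESC2, NSC1 and NSC2, CDK14, a long gene, had 1, 1, 8 and 7, and CDC14A had 1, 2, 4 and 2. For CDC34, CDK3, E2F2, ORC5 and CCNA1 no library had a peak there.

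How far the calls depended on the width of the window and the strength required is shown by the plot of genes called under each setting. Widths of 500 bp and 2.5 kb left the counts close to those above. A −log10 q of at least 5 left 3 genes in ESC1, which is near the 3.36% of all genes called there. Under that requirement 12 genes were NSC-only (against 11.1% of all genes). CDC26, CDCA2 and CDK2 were called in all 4 libraries, and this count is near the background of 3.06%. With lists of equal length 2 genes, CDCA3 and MCM9, were NSC-only, and CDC45 was the single ESC-only gene. These classes then held 2.19% and 1.27% of all genes, so both counts are near the background. In that setting 9 genes were called in all 4 libraries (against 3.80% of all genes): CCNG2, CDC20, CDCA2, CDK12, CDK13, CDK19, CDK2, ORC4 and ORC6. Without ESC2 the NSC-only class held 39 genes (against 29.1% of all genes). Without ESC1 31 genes were called in all the remaining libraries (against 18.7%).

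**Figure D5:**
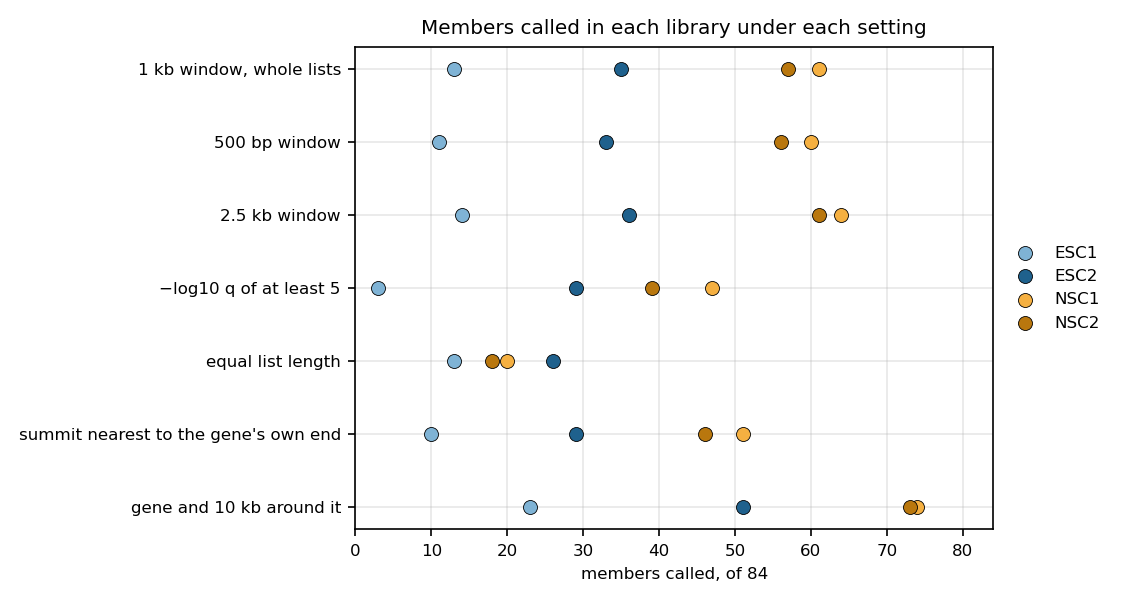
Number of the 84 genes called (horizontal axis) in each library under 7 settings, 1 point per library. Both NSC points lie to the right of both ESC points in each setting except equal list length, where ESC2 has 26 genes and NSC1 and NSC2 have 20 and 18.

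Other genes of the same pathways, in lists of replication factors, of CDK inhibitors with retinoblastoma and DREAM complex genes, and of checkpoint and mitotic genes, were called at 4, 21, 57 and 45 of 74 in ESC1, ESC2, NSC1 and NSC2 (5.41%, 28.4%, 77.0% and 60.8%). The share in both NSC libraries was thus above the background, as in the 8 families, while the share in ESC1 was near it. In all 4 libraries 4 of the 74 were called (against 6.01% of all genes), a count near the background. They were LIN37 and LIN52 of the DREAM complex, NEK2, a centrosome kinase, and PLK4, the kinase of centriole duplication. Of 28 replication genes none was called in ESC1 and 5 were in ESC2 (17.9%), against 6.80% and 23.2% of all genes. The NSC-only class held 15 of them, and it held 16.4% of all genes. These included DBF4, the partner of CDC7, with −log10 q of 21.1 and 16.2 in NSC1 and NSC2, RFC5, of the clamp loader, with 15.9 and 10.2, and RRM2, of ribonucleotide reductase, with 12.6 and 10.1. PCNA, the sliding clamp, was called in ESC2, NSC1 and NSC2 with 4.42, 18.1 and 23.5. The checkpoint and mitotic list had 7 NSC-only genes of 28 and the list of inhibitors, retinoblastoma and DREAM genes 3 of 18. With 16.4% of all genes in the class, 3 of 18 is near the background.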

How the data were processed

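The submitters' processing notes name BWA 0.7.12, FastQC, Trimmomatic and the build hg38. Per the file headers, MACS2 2.1.0.20150420 called peaks in each library on its own, with no control, a q threshold of 0.05, reads shifted by −100 bp and extended to 200 bp, and a regional background of 10000 bp. The deposited pileup is a signal value at the summit of a peak. The −log10 p and −log10 q values are the authors' and refer to the local background of 1 library. The deposited fold enrichment, a ratio of pileup to that background, was not compared between libraries. The file headers gave 5377831 to 20734829 tags per library. A place without a peak has no deposited value, so a missing peak means that the threshold was not passed.

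From the lists, entries that gave several summits of 1 interval were joined, keeping the highest −log10 q, autosomes 1 to 22 were used, and peaks were assigned to RefSeq genes of GRCh38.p14 with Python 3.11.15, pandas 2.3.3 and numpy 2.4.6. Strand and promoter sequences came from the RefSeq promoter table, which matched 73 of 84 genes. A genome was not used here. The counting was tested on simulated data. Libraries were compared by presence of peaks, with an exact permutation test of the number of genes called per library.

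The members, the lists and the tests were chosen with earlier results of these data known. Genes are named when called in all 4 libraries or ESC-only, when among the 10 NSC-only genes with the highest mean percentile in the NSC lists, when first of their family by mean percentile, or when in a fixed list of core genes; others are given by symbol and value where they complete a family or role. Alternatives were windows of 500 bp and 2.5 kb, the 5′ end alone, a −log10 q of at least 5, lists of equal length, the locus within 10 kb, each library left out, and, added later, the gene end nearest to the summit.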

Additional observations from a re-analysis of the deposited data

How the results depend on the processing

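The 4 counts per library, the 3 class counts and the difference of the means were recomputed under each alternative. Windows of 500 bp and 2.5 kb and the 5′ end alone (where 73 genes have a strand) kept each of them within 1.5 times its value above. A −log10 q of at least 5 gave 3 genes in ESC1, 12 NSC-only genes and 3 in all 4 libraries. The shares of all genes were then 3.36%, 11.1% and 3.06%, so the counts of 3 are near the background. Lists of equal length gave 20 genes in NSC1, 18 in NSC2, 2 NSC-only genes and 1 ESC-only gene. The shares of all genes were then 11.4%, 10.9%, 2.19% and 1.27%, so the last 2 counts are near the background. The difference of the means turned to −0.5 genes. The locus within 10 kb gave 23 genes in ESC1 and 23 in all 4 libraries, against 15.5% and 12.2% of all genes. Summits nearest to the gene's own end, an alternative chosen after seeing the data, gave 1 ESC-only gene and 8 in all 4 libraries. The shares of all genes were then 0.335% and 4.35%. Leaving out each library in turn gave 21 to 39 NSC-only genes (39 without ESC2), 0 to 3 ESC-only genes (3 without ESC1), 13 to 31 genes in all libraries left (31 without ESC1), and a difference of the means of 24.0 to 46.0 genes. The class of a gene was the same as above for 80 of 84 genes at 500 bp, 79 at 2.5 kb, 68 with the nearest end, 55 by locus, 41 at the stricter −log10 q and 27 with lists of equal length. The cause of these shifts was not tested. No paired analysis was possible because the results are counts of genes called per library, with no model fitted, and no label ties the shared numbers 1 and 2 to a culture or batch. Depth limits the calls in an unknown way, since the lists hold no reads outside peaks.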

Other observations

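The cyclins that partner the transcription kinases lie outside the symbol patterns and were examined after the values of CDK12, CDK13 and CDK19 had been seen. CCNC, the Mediator cyclin of CDK8 and CDK19, was called in all 4 libraries, with −log10 q of 2.1, 22.3, 7.71 and 8.04 in ESC1, ESC2, NSC1 and NSC2. CCNT1 and CCNT2, the cyclins of CDK9, were also called in all 4, with 7.18, 12.3, 28.6 and 27.3 at CCNT1 and 2.34, 14.2, 25.2 and 22.3 at CCNT2. CCNK, the cyclin of CDK12 and CDK13, was called in ESC2, NSC1 and NSC2 with 12.5, 20.7 and 22.6, and CCNH, of the CDK-activating kinase, in the same libraries with 11.8, 10.2 and 10.4. The third subunit of that kinase, MNAT1, was called in ESC2 at 2.60 and NSC2 at 2.75.

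On the X chromosome, which the set leaves out, CDK16 had a gene-end peak in all 4 libraries with −log10 q of 2.03, 19.5, 34.8 and 18.1, and CCNB3 had none.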
